A study of Mus musculus with 8 samples.

Results

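Nuclear hormone receptor genes were examined in ribosome-bound RNA of AgRP neurons, neurons of the arcuate nucleus that drive eating. The genes are 37 of the 45706 listed in the deposited table. They were set by symbol, with earlier results of these data known. They cover the receptors for steroids, thyroid hormone, retinoids, vitamin D, fatty acids and oxysterols, and related receptors, most of which have no settled hormone. All 8 libraries came from 1 genotype, Mff fl/fl with AgRP-IRES-Cre tg/wt and RpL10a-GFP fl/wt, in random-fed mice aged 11 to 12 weeks, with 3 mice of mixed sexes pooled per library. The RNA was either the immunoprecipitate (IP) of the GFP-tagged ribosomal protein RpL10a, labelled as hypothalamic cells expressing Agrp (n = 4 libraries), or the input of hypothalamic tissue (n = 4). Cre at the Agrp locus drives both the deletion of Mff, a mitochondrial fission factor gene, and the tag, so every tagged cell is meant to lack Mff. The control genotype is not analysed here, and no value below measures the deletion. Male and female mice share a pool, so no level can be divided by sex.

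Nuclear receptors are transcription factors that carry a zinc-finger DNA-binding domain and, in most cases, a pocket for a small lipid-soluble ligand. Some steroid receptors, the glucocorticoid receptor among them, wait in the cytosol on chaperones and enter the nucleus when bound. Thyroid hormone, retinoic acid, vitamin D and fatty acid receptors instead sit on DNA as dimers with a retinoid X receptor and exchange corepressors for coactivators. In the hypothalamus they are known for reporting glucocorticoids, sex steroids, thyroid hormone and lipids to neurons that govern feeding, reproduction and temperature.

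Libraries held 39.9 to 64.8 M estimated counts (M, mega) in IP and 44.1 to 74.6 M in input. Levels are given as counts per M counts of a library (CPM) after TMM scaling. A CPM level is thus relative to the other counts of its library and is not corrected for transcript length. Agrp averaged 843 ± 170 CPM in IP and 3.35 ± 0.741 CPM in input (SD, n = 4 each). Npy, the gene of neuropeptide Y, averaged 1943 ± 450 and 13.8 ± 0.874 CPM in IP and input. Mff averaged 68.4 ± 3.10 CPM in IP and 124 ± 8.69 CPM in input, which does not check the deletion, because reads from undeleted exons and from other cells count. IP replicate 3 stood apart from its group. In a chi-square test of counts across genes, the statistic divided by its degrees of freedom was 222 to 329 for its pairs with the other IP libraries, against 47.1 to 60.2 among those and 18.5 to 64.9 among input libraries. Receptor gene calls that depend on it, and list counts that it moves by over 1.5 times, are given with and without it.

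All 37 genes passed the filter on low counts, which kept 17000 genes. Differences are log2 fold changes of IP over input with their standard errors (SE) from edgeR's quasi-likelihood test, and a gene was called where the Benjamini-Hochberg adjusted p over the 17000 genes was under 0.05. In IP, 7 of the 37 receptor genes were higher (18.9%, beside 24.5% of all tested genes), 14 were lower (37.8%, beside 20.9%) and 16 were not called. Of all tested genes 45.4% were called in either direction. Their median log2 difference was -0.43, against -0.01 over all tested genes. In 7 genes every IP library stood above every input library (24.1% of all tested genes), and in 16 every IP library stood below (24.0% of all tested genes). The 7 were the genes called higher. The 16 were the 14 called lower together with Pparg and Esrrb, both under 2 CPM. Fewer cells of a type and less RNA per cell cannot be told apart in such bulk values. Without IP replicate 3, again 7 receptor genes were called higher and 14 lower. GC and length offsets moved the median of all tested genes up by 0.32 and with it most receptor genes: 9 were then higher and 10 lower. Esrrg (-0.23), Nr1h2 (-0.27), Nr6a1 (-0.76) and Ppara lost their calls, Esr1 was at -0.79, Thrb at -0.81, Rora at -0.60, Rorb at -0.80, Nr3c1 at 0.97, Thra at 0.66 and Nr2c2 at 0.69, and Pgr (0.52) and Nr3c2 (0.69) were called higher.

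**Figure D1:**
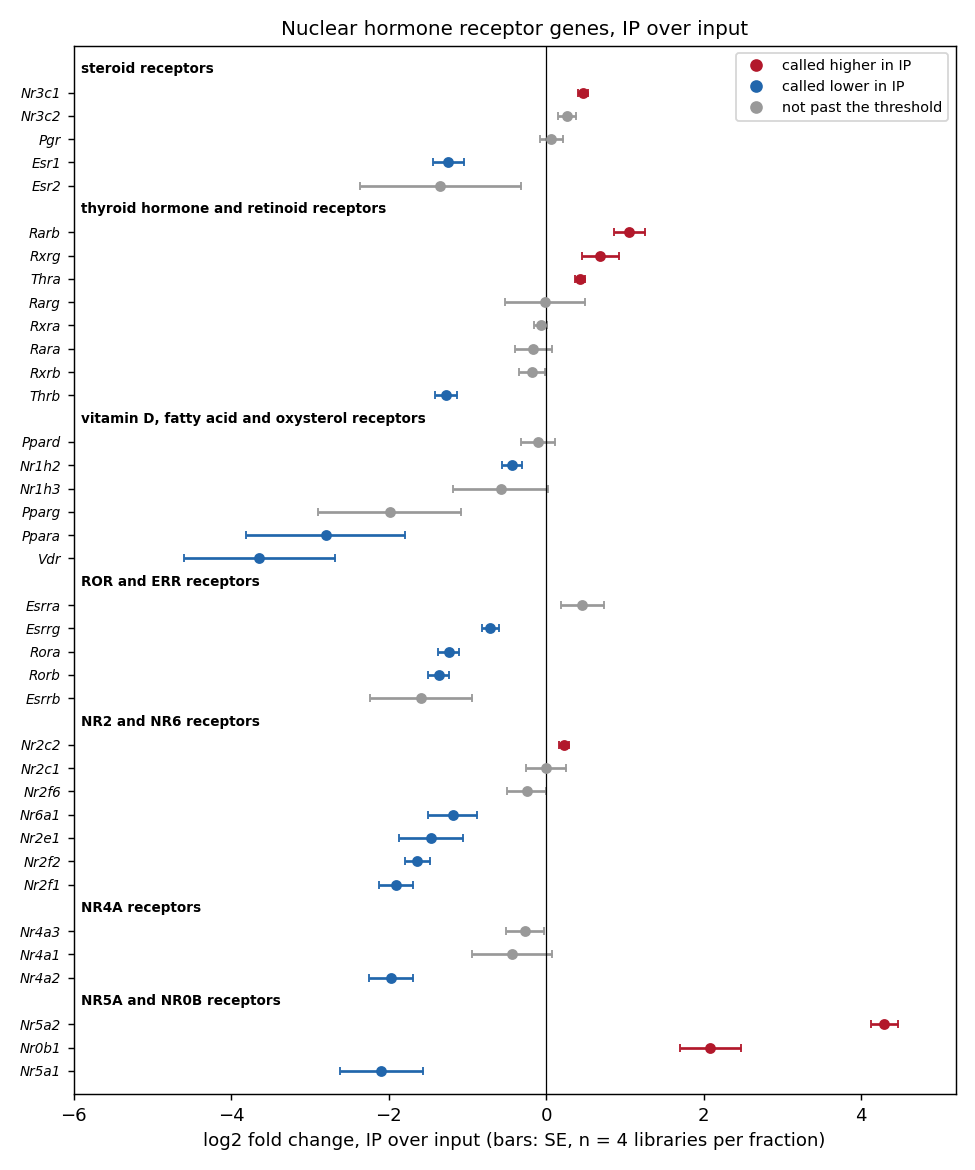
Log2 difference of IP over input for each of the 37 receptor genes, grouped by role (points, edgeR estimates; bars, SE; 4 libraries per fraction; colour, call). Nr5a2 at 4.30 lies farthest to the right and Vdr at -3.64 farthest to the left, and the NR5A and NR0B group spans both directions.

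Nr5a2, Nr0b1 and Nr5a1 form a small circuit and were all called, in both directions. Nr5a1 and Nr5a2 encode steroidogenic factor 1 and liver receptor homologue 1, which bind DNA as monomers at a shared kind of site ending in AGGTCA. Nr0b1 encodes DAX-1, which lacks the usual DNA-binding domain and represses both. Of the 3, the genes of the second factor and of the repressor were higher in IP, and that of the first was lower. Sequence upstream of the RefSeq start of each gene that was higher is shown because both hold the AGGTCA half-site, set in capitals. That half-site is only the end of the shared site, and binding of either factor to it was not tested. The Nr5a2 stretch is chr1:136960449-136960698 on the minus strand and the Nr0b1 stretch chrX:86191525-86191763 on the plus strand, both from RefSeq on GRCm38.p6, 5′ to 3′.
Nr5a2: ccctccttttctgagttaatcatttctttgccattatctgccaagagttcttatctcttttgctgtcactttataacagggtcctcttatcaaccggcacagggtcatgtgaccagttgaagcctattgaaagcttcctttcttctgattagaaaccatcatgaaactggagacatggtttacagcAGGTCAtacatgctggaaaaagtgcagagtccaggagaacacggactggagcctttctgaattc
Nr0b1: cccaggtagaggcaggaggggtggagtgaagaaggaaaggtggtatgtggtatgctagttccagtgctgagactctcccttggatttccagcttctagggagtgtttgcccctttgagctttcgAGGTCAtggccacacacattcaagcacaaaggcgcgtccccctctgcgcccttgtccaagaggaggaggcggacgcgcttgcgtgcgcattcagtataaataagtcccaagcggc
The half-site lies at -64 to -59 in Nr5a2 and at -126 to -121 in Nr0b1, counted back from the start. The Nr5a2 stretch spans -250 to -1, and the Nr0b1 stretch spans -250 to -12, so its printed end lies short of the start. The half-site was searched on both strands of the 250 bases before each RefSeq start and occurs in 14.0% of all 32851 such windows. The 34 receptor genes with a RefSeq entry have 54 such windows, and 9 of these windows hold it. They belong to 8 genes, namely Nr0b1, Nr5a2, Nr6a1, Pparg, Rarg, Rxra, Rxrg and Thrb. Of these 8, Rxrg was also higher in IP, Thrb and Nr6a1 were lower, and Pparg, Rarg and Rxra were not called, so the genes with this half-site did not move one way. TATAAA, the usual letters of a TATA box, is in the Nr0b1 window at -32. It is in 7 of the 54 windows of the 34 genes and in 12.4% of all windows.

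Nr5a2 (ENSMUSG00000026398, chr1:136842571-136960448, minus strand) was measured at 40.6, 31.4, 35.4 and 47.0 CPM in IP replicates 1 to 4, against 2.22, 1.96, 1.98 and 1.68 CPM in input replicates 1 to 4. The lowest IP library was far above the highest input library. The mean was 38.6 ± 6.75 CPM in IP and 1.96 ± 0.223 CPM in input (SD, n = 4 each), a ratio of 19.7, with a log2 difference of 4.30 ± 0.17 (SE) and an edgeR adjusted p of 1.22e-08. Nr0b1 (ENSMUSG00000025056, chrX:86191764-86195947, plus strand) was a low gene that ranged from 1.96 to 4.17 CPM in IP and from 0.637 to 0.815 CPM in input, without overlap. Its log2 difference was 2.09 ± 0.39 (edgeR adjusted p = 0.00103). Nr5a1 (ENSMUSG00000026751, chr2:38692656-38714542, minus strand), known in the hypothalamus as a marker of the ventromedial nucleus, ranged from 0.226 to 1.33 CPM in IP and from 2.35 to 3.42 CPM in input. It differed by -2.09 ± 0.52 (edgeR adjusted p = 0.00687). Beside Nr5a1, 7 of 8 other ventromedial neuron markers were lower in IP, where 20.9% of all tested genes were lower. The summed level of the 8 was 68.8 to 100.5 CPM in IP and 229.7 to 241 CPM in input. Whether such cells bear on the Nr5a1 value was not tested.

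**Figure D2:**
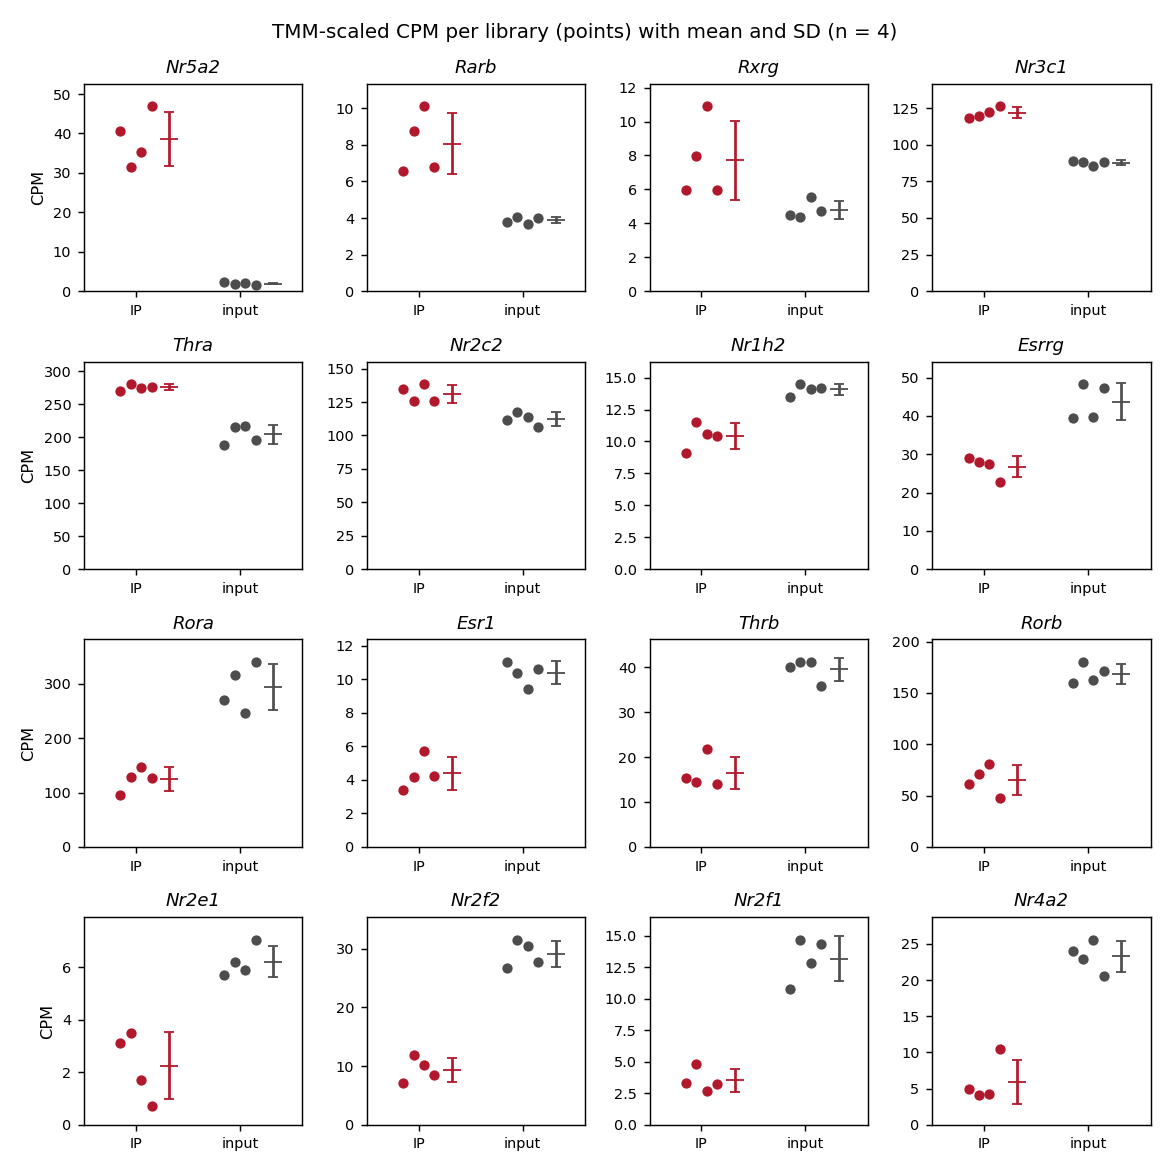
CPM of those called receptor genes whose mean reached 5 CPM in the higher fraction, in each of the 4 IP libraries (left in each panel) and the 4 input libraries (right), with the mean and SD beside them (n = 4 each) and axes from 0. The fractions do not overlap in any panel, and Nr5a2 has the highest ratio of IP to input, 19.7.

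Among the 5 steroid receptor genes, the glucocorticoid receptor gene was higher in IP, the oestrogen receptor alpha gene was lower and 3 were not called. Nr3c1, which encodes the glucocorticoid receptor, was measured at 118, 119.6, 123 and 127 CPM in IP replicates 1 to 4 and at 89.1, 88.5, 85.3 and 88.5 CPM in input replicates 1 to 4. All IP libraries were above all input libraries with little spread in either group (log2 difference 0.47 ± 0.06 SE, edgeR adjusted p = 6.12e-05). Esr1 (ENSMUSG00000019768, chr10:4611593-5005614, plus strand) stood at 3.38, 4.18, 5.73 and 4.25 CPM in IP, against 11.0, 10.4, 9.43 and 10.6 CPM in input. Its IP level was 0.423 of the input level, with a log2 difference of -1.24 ± 0.19 (edgeR adjusted p = 0.000298). Esr1 is known in the arcuate and ventromedial nuclei, where it mediates oestrogen effects on feeding and energy use. Pgr, the progesterone receptor gene and an oestrogen target in the hypothalamus, averaged 46.4 ± 10.4 CPM in IP and 44.3 ± 2.28 CPM in input and was not called (log2 difference 0.07 ± 0.15). Its IP libraries spanned 31.4 to 53.6 CPM, with replicate 1 lowest. The log2 ratio of Esr1 to Pgr within a library was -3.40 ± 0.22 in IP and -2.09 ± 0.14 in input (SD, n = 4 each). Nr3c2, the gene of the mineralocorticoid receptor, which also binds glucocorticoids, ranged from 20.8 to 27.0 CPM in IP and from 18.7 to 21.8 CPM in input (log2 difference 0.27 ± 0.11, edgeR adjusted p = 0.0783). Without IP replicate 3, its lowest IP library, the difference was 0.34 and was called (edgeR adjusted p = 0.0129), as it was with library totals alone (0.36, edgeR adjusted p = 0.0163). Esr2, the oestrogen receptor beta gene, was at or under 0.971 CPM in every library and was not called (edgeR adjusted p = 0.313), but limma-voom called it lower (adjusted p = 0.0477).

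The thyroid hormone receptor genes moved in opposite directions. Thra (ENSMUSG00000058756, chr11:98740638-98769006, plus strand), which encodes the alpha receptor common in neurons, was measured at 270.5, 281, 274 and 277 CPM in IP replicates 1 to 4 and at 189, 215, 217 and 196 CPM in input replicates 1 to 4. The groups did not overlap (log2 difference 0.43 ± 0.06 SE, edgeR adjusted p = 0.000193). Thrb, which encodes the beta receptor known for feedback on thyroid hormone output, stood at 15.3, 14.5, 21.7 and 14.0 CPM in IP, against 40.0, 41.2, 41.3 and 35.8 CPM in input. IP replicate 3 was the highest of its group and still under every input library (-1.27 ± 0.14, edgeR adjusted p = 2.78e-05). The Thra to Thrb log2 ratio was 4.09 ± 0.30 in IP and 2.37 ± 0.09 in input (SD, n = 4 each).

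Among the retinoid receptor genes, Rarb and Rxrg were higher in IP and the other 4 were not called. Rarb encodes retinoic acid receptor beta, whose own promoter is a textbook retinoic acid target with a direct repeat of GTTCA. That repeat was searched because it is known there, so its presence in Rarb was fixed in advance. No other of the 34 receptor genes with an entry held this exact spelling (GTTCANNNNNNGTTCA, both strands, 0.0670% of the 32851 windows). The bases below are chr14:16575506-16575535 on the minus strand, from RefSeq on GRCm38.p6, 5′ to 3′, with the repeat in capitals.
Rarb: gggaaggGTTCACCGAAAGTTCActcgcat
The repeat lies at -52 to -37 from the RefSeq start, inside an exon of another Rarb transcript in GENCODE. It contains the half-site AGTTCA, which is in 11.8% of all windows and in 8 of the 54 windows of the 34 receptor genes. Rarb (ENSMUSG00000017491, chr14:16430839-16819156, minus strand) was measured at 6.56, 8.77, 10.1 and 6.81 CPM in IP replicates 1 to 4 and at 3.79, 4.05, 3.68 and 3.98 CPM in input replicates 1 to 4. Each IP library was above the highest input library, and the IP libraries were more widely spread (log2 difference 1.06 ± 0.20 SE, edgeR adjusted p = 0.00128). Exons of Top2b on the opposite strand, a gene chosen after its values were seen, cover 34.1% of the exon bases of Rarb, and no strand setting is given. Top2b itself was not called (log2 difference -0.04, edgeR adjusted p = 0.789).

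Rxrg, the retinoid X receptor gamma gene, stood at 5.98, 7.98, 10.9 and 5.96 CPM in IP and at 4.48, 4.37, 5.54 and 4.75 CPM in input. The groups were separate by a small gap (0.69 ± 0.23, edgeR adjusted p = 0.031). Its call ended without IP replicate 3, the highest library (0.48, adjusted p = 0.0603 in edgeR), without IP replicate 2 (0.0541) and without input replicate 1, 2 or 4 (0.0799, 0.0839 and 0.0703). Rxra, the common partner of the thyroid hormone, retinoic acid, vitamin D and fatty acid receptors, averaged 32.6 ± 2.23 CPM in IP and 34.2 ± 0.411 CPM in input (log2 difference -0.07 ± 0.09). Rxrb ranged from 8.60 to 14.0 CPM in IP and from 12.5 to 14.0 CPM in input. Rara, the alpha receptor for retinoic acid, ranged from 4.90 to 11.0 CPM in IP, with replicate 4 alone under 10 CPM, and from 9.39 to 11.1 CPM in input. Rarg was at or under 3.13 CPM in every library. The Rara to Rarb log2 ratio was 0.14 ± 0.50 in IP and 1.40 ± 0.10 in input, and the Rxra to Rxrg ratio was 2.12 ± 0.41 in IP and 2.84 ± 0.14 in input (SD, n = 4 each).

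Receptors for vitamin D, fatty acids and oxysterols were lower or not called, with 0 of 6 higher and 3 lower. Of all tested genes 24.5% were higher and 20.9% lower. Vdr, the vitamin D receptor gene, had 0 to 8 counts per IP library, or 0 to 0.142 CPM, against 22 to 53 counts, or 0.400 to 0.954 CPM, in input (edgeR adjusted p = 0.0091). Ppara, whose receptor drives fatty acid oxidation in fasting liver, ranged from 0 to 0.637 CPM in IP and from 1.15 to 1.77 CPM in input (log2 difference -2.80 ± 1.01, edgeR adjusted p = 0.042). That call was lost without IP replicate 2 or 4 and without any 1 input library (edgeR adjusted p of 0.0724 to 0.0975). Without IP replicate 1, which held 36 of its counts, the difference was -4.37. Nr1h2, the gene of the widely expressed oxysterol receptor LXR beta, was measured at 9.11, 11.5, 10.6 and 10.5 CPM in IP replicates 1 to 4 and at 13.5, 14.5, 14.1 and 14.2 CPM in input replicates 1 to 4. The IP libraries were all lower (-0.44 ± 0.13, edgeR adjusted p = 0.0166), and the call was lost without input replicate 2, 3 or 4 (adjusted p = 0.0557, 0.0518 and 0.0544 in edgeR). Nr1h3, the LXR alpha gene, was under 1.5 CPM in every library and not called. Ppard, a widely expressed fatty acid receptor gene, averaged 12.2 ± 4.22 CPM in IP and 13.1 ± 1.78 CPM in input (-0.10 ± 0.22), with IP replicate 4 at 18.5 CPM above every other library. Pparg, whose receptor directs fat cell differentiation, was at or under 0.208 CPM in IP and at 0.419 to 0.510 CPM in input. Its groups did not overlap and it was not called (edgeR adjusted p = 0.0975).

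Of the 5 ROR and oestrogen-related receptor genes 3 were lower and 0 higher, beside 20.9% and 24.5% of all tested genes. Rora, whose receptor activates clock genes and shapes cerebellar neurons, was measured at 95.2, 129.5, 147 and 127 CPM in IP replicates 1 to 4 and at 271, 316, 247 and 341 CPM in input replicates 1 to 4. Rorb, known from retina and cortex, stood at 61.7, 71.4, 80.9 and 47.5 CPM in IP, against 159.5, 180.5, 163 and 171 CPM in input. Both had IP levels at about the same fraction of input (0.425 for Rora and 0.388 for Rorb), and neither had overlapping groups. The log2 difference was -1.24 ± 0.14 (SE) for Rora (edgeR adjusted p = 2.21e-05). It was -1.36 ± 0.14 for Rorb (edgeR adjusted p = 1.1e-05). Esrrg, an oestrogen-related receptor gene of oxidative tissues and neurons, stood at 29.0, 28.0, 27.4 and 22.8 CPM in IP, against 39.4, 48.4, 39.7 and 47.4 CPM in input (-0.71 ± 0.11, edgeR adjusted p = 0.000331). Esrra, which works with PGC-1 alpha on mitochondrial genes, averaged 6.53 ± 2.39 CPM in IP and 4.75 ± 0.379 CPM in input and was not called (0.46 ± 0.27, edgeR adjusted p = 0.196). Without IP replicate 4, at 3.52 CPM the lowest library, Esrra was called higher (0.67, edgeR adjusted p = 0.0227). Esrrb, known from pluripotent cells, ranged from 0.124 to 0.629 CPM in IP and from 0.745 to 1.75 CPM in input and was not called (edgeR adjusted p = 0.0669), but was called without IP replicate 4 (edgeR adjusted p = 0.0463).

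In the NR2 and NR6 group 4 of 7 genes were lower (20.9% of all tested genes), 1 was higher (24.5%) and 2 were not called. The COUP transcription factor genes Nr2f1 and Nr2f2, which pattern the developing forebrain, were both far lower in IP. Nr2f1 was measured at 3.33, 4.84, 2.66 and 3.27 CPM in IP replicates 1 to 4 and at 10.8, 14.7, 12.9 and 14.3 CPM in input replicates 1 to 4 (-1.90 ± 0.21 SE, edgeR adjusted p = 2.64e-05). Nr2f2 stood at 7.06, 11.8, 10.2 and 8.45 CPM in IP, against 26.7, 31.6, 30.4 and 27.8 CPM in input (-1.63 ± 0.16, edgeR adjusted p = 9.59e-06). Their IP levels were 0.267 and 0.322 of input. Nr2e1, which encodes the neural stem cell factor Tlx, stood at 3.10, 3.48, 1.70 and 0.705 CPM in IP, against 5.72, 6.19, 5.89 and 7.05 CPM in input (-1.46 ± 0.41, edgeR adjusted p = 0.0127). All IP libraries were below all input libraries, and IP replicate 4 was the lowest. Nr6a1, the germ cell nuclear factor gene, ranged from 1.18 to 2.90 CPM in IP and from 4.24 to 4.41 CPM in input (edgeR adjusted p = 0.00914).

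Nr2c2, the testicular receptor 4 gene, was the gene of this group that was higher, at 135, 126, 139 and 126 CPM in IP and at 111, 118, 114 and 106 CPM in input. The difference was small (0.22 ± 0.07, edgeR adjusted p = 0.0153), and with upper quartile factors it was 0.09 and not called (edgeR adjusted p = 0.286). Exons of Mrps25, chosen after its values were seen, overlap 30.7% of the exon bases of Nr2c2, and Mrps25 was lower in IP (-0.88). Its close relative Nr2c1 averaged 5.42 ± 1.87 CPM in IP and 5.43 ± 0.512 CPM in input. Nr2f6 ranged from 2.60 to 4.77 CPM in IP and from 4.50 to 5.27 CPM in input and was not called, and 54.4% of its exon bases overlap those of Ocel1, also chosen after its values were seen.

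The NR4A receptors are immediate-early genes that neurons induce when active. Nr4a2 was measured at 4.97, 4.08, 4.30 and 10.5 CPM in IP replicates 1 to 4 and at 24.0, 22.9, 25.6 and 20.5 CPM in input replicates 1 to 4. IP replicate 4 was above the other IP libraries and still under every input library (-1.97 ± 0.28 SE, edgeR adjusted p = 0.000153). Nr4a2 is also known as a marker of dopaminergic identity. Of 10 markers of arcuate neurons of several types outside the AgRP type 8 were lower in IP, beside 20.9% of all tested genes. Among them were the dopamine synthesis gene Th (-1.27 ± 0.15) and the dopamine transporter gene Slc6a3 (-1.70 ± 0.31). Whether such cells bear on the Nr4a2 value was not tested. Nr4a1 ranged from 1.24 to 7.66 CPM in IP and from 3.28 to 7.08 CPM in input. Nr4a3 ranged from 5.79 to 14.3 CPM in IP and from 11.4 to 13.2 CPM in input, and neither was called.

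For 17 pairs of related receptors the log2 ratio of one to the other was taken within each library, where scaling cancels, and compared between fractions by a 2-sided exact permutation test. In 7 pairs the fractions did not overlap, with an exact p of 0.0286, the smallest that 70 arrangements allow, and 0.0694 after adjustment over the 17 pairs. No pair therefore passed 0.05 after adjustment, and 7 did before it. With 0.0286 as the smallest p, a single pair could not pass after adjustment, however large its difference, unless many pairs separated at once. The adjusted result therefore cannot decide whether any 1 ratio differed. The pairs had been chosen with earlier results of these data known, which the p-values do not take into account. The 7 pairs were Nr5a2 to Nr5a1, Thra to Thrb, Esr1 to Pgr, Rara to Rarb, Rxra to Rxrg, Esrra to Esrrg and Ppara to Ppard. The ratio of Nr5a2 to Nr5a1 was 6.05 ± 1.22 in IP and -0.62 ± 0.13 in input (SD, n = 4 each), a difference of 6.66 on the log2 scale. In the other 10 pairs the fractions overlapped. The log2 ratio of Rora to Rorb differed between IP and input by 0.15 (exact p = 0.543) and that of Nr2f1 to Nr2f2 by -0.27 (exact p = 0.229). That of Nr3c1 to Nr3c2 differed by 0.21 (exact p = 0.0857).

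**Figure D3:**
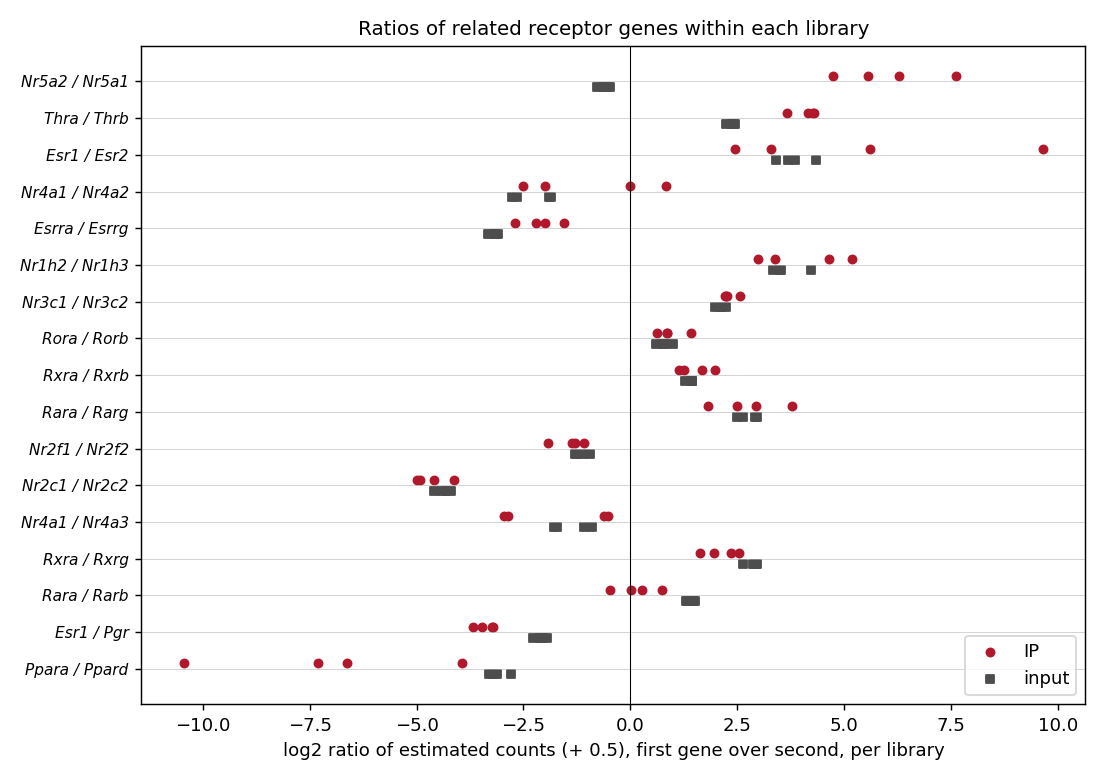
Log2 ratio of the first to the second gene of each of 17 receptor pairs, with 1 point per IP library and 1 per input library. The fractions are separate in 7 pairs, most widely for Nr5a2 to Nr5a1 (6.05 in IP and -0.62 in input), and overlap in the other 10.

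Levels of different genes were compared as CPM per kb of the longest protein-coding transcript. Thra led both fractions, at 112 ± 1.80 CPM per kb in IP and 83.2 ± 5.70 CPM per kb in input. In IP it was followed by Nr3c1 (18.9 ± 0.578), Nr2c2 (17.1 ± 0.865), Rora (11.5 ± 2.00), Nr5a2 (8.16 ± 1.43), Rorb (7.03 ± 1.54), Pgr (6.74 ± 1.51) and Rxra (6.64 ± 0.456). From Rora to Rxra each level overlapped the next in this order within 1 SD. In input Thra was followed by Rora (27.0), Rorb (18.1), Nr2c2 (14.7) and Nr3c1 (13.6). Nr5a2 ranked 5 of 37 in IP and 32 of 37 in input, where it stood at 0.414 CPM per kb. Vdr ranked last in both fractions with this length. Thra alone supplied, with no correction for length, 25.1% to 27.9% of the summed CPM of the 37 genes in IP and 15.4% to 18.0% in input, and that sum was 969 to 1090 CPM in IP and 1179 to 1305 CPM in input. Taking the median transcript length instead of the longest, the IP level of 22 of the 37 genes moved by more than 1 SD. Thra, Nr3c1 and Nr2c2 still led IP in that order and Nr5a2 was next, before Rora, but Rorb ranked 11, Thrb ranked 8 after 17 with the longest, and Vdr ranked 34, with Pparg last.

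**Figure D4:**
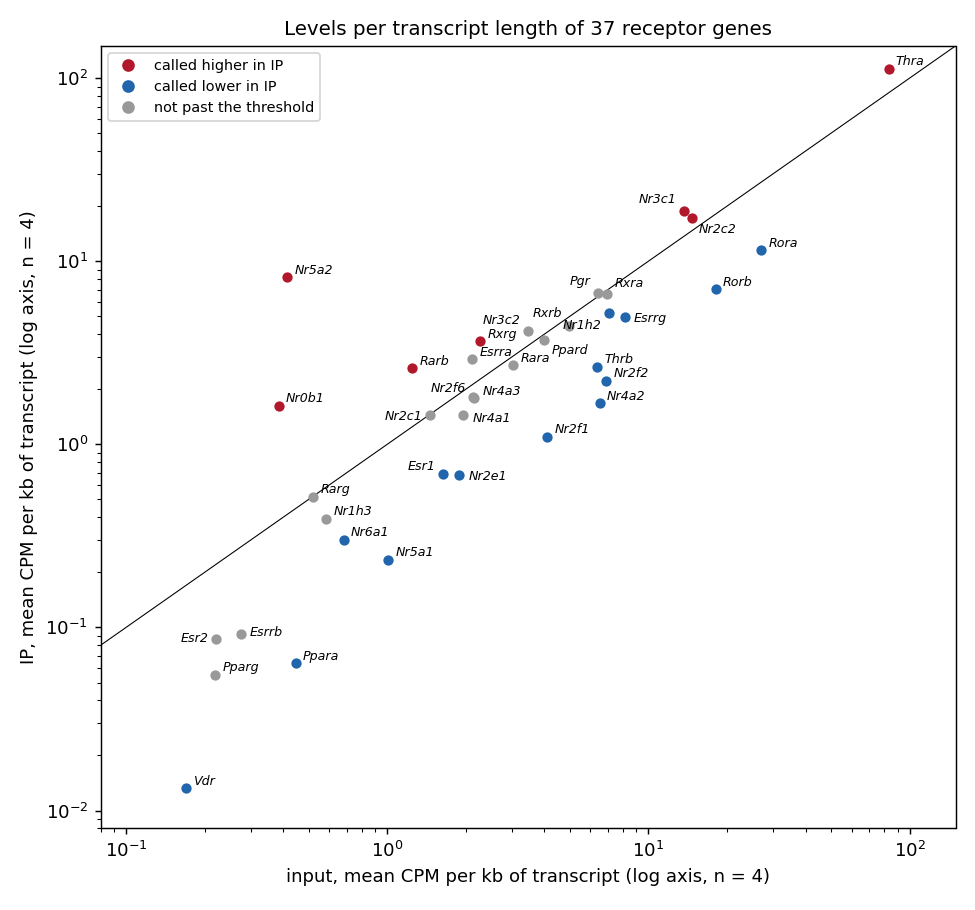
Mean level of each receptor gene in CPM per kb of transcript, on log axes. Thra is highest in both fractions (112 in IP and 83.2 in input) and Nr5a2 stands out from the rest, with 8.16 in IP and 0.414 in input.

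Many markers of cells other than AgRP neurons were lower in IP beside the 14 lower receptor genes. Of all tested genes 20.9% were lower and 24.5% higher. Of 12 AgRP neuron markers 11 were higher, with a summed level of 3533 to 5134 CPM in IP and 166 to 180 CPM in input. All 11 astrocyte markers were lower, with sums of 1038 to 1397 CPM in IP and 3196 to 3983 CPM in input. All 10 oligodendrocyte markers were lower (617 to 904 CPM in IP, 2160 to 2722 CPM in input), as were all 6 oligodendrocyte precursor markers (34.7 to 54.5 CPM in IP, 137 to 159 CPM in input). Of 12 microglia markers 10 were lower (26.5 to 32.5 CPM in IP, 77.4 to 93.4 CPM in input), and of 14 vascular and fibroblast markers 5 were (17.3 to 40.9 CPM in IP, 46.3 to 58.9 CPM in input). Of 8 tanycyte and ependymal markers 5 were lower and 0 higher (17.5 to 27.0 CPM in IP, 33.4 to 37.2 CPM in input). Leaving out IP replicate 3 gave 5 lower and 1 higher. Of 6 pituitary markers, 5 of them tested, 3 were lower (3.90 to 12.6 CPM in IP, 13.1 to 22.9 CPM in input). Other arcuate neuron markers summed to 101 to 136 CPM in IP and 226 to 274 CPM in input. The median log2 difference of the astrocyte list was -1.62 and that of the microglia list -1.85. The 14 lower receptor genes ran from -3.64 for Vdr to -0.44 for Nr1h2, with a median of -1.41. No marker was at 0 in all IP libraries. The part of these cells in the receptor values was not tested.

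The lists that follow are given by the number of genes called, to be set against the 24.5% of all tested genes that were higher and the 20.9% that were lower. Among 12 further nuclear receptor genes 5 were tested, with 1 higher and 1 lower, or 2 lower without IP replicate 3. Nr1d2, a clock repressor gene, was higher (109 ± 10.5 CPM in IP, 76.9 ± 5.32 CPM in input, log2 difference 0.51 ± 0.08, edgeR adjusted p = 0.000498). Nr1i3, the constitutive androstane receptor gene, was lower (0.299 ± 0.227 CPM in IP, 4.85 ± 1.65 CPM in input, edgeR adjusted p = 0.00116). Nr1d1, also a clock repressor gene, averaged 75.6 ± 13.2 CPM in IP and 86.6 ± 10.8 CPM in input and was not called (-0.20 ± 0.13, edgeR adjusted p = 0.241). Nr0b2, Nr1h4, Nr1h5, Nr1i2, Nr2e3, Hnf4a and Hnf4g had means of at most 0.101 CPM in either fraction and were not tested.

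Genes for steroid receptor chaperones and for proteins that work with them were mostly higher in IP, in 9 of 10 cases. The list median was 0.56, and the summed level was 4954 to 6759 CPM in IP and 3861 to 4607 CPM in input. Bag1, a cochaperone of Hsp70 that also binds the glucocorticoid receptor, averaged 138 ± 8.56 CPM in IP and 72.6 ± 5.05 CPM in input (0.92 ± 0.08, edgeR adjusted p = 2.23e-06). Stub1, the ubiquitin ligase CHIP, averaged 113 ± 15.3 and 58.3 ± 1.75 CPM in IP and input (0.95 ± 0.10). Dnaja1 was the 1 not called (-0.08 ± 0.09), and with GC and length offsets it was called higher (0.47). Of 14 coactivator genes 2 were higher and 5 lower, with a median of -0.26, and without IP replicate 3 the counts were 3 and 8. The arginine methyltransferase gene Carm1 (0.71 ± 0.12) and Ncoa7 (0.27 ± 0.08) were higher, and the acetyltransferase genes Kat2b (-1.47 ± 0.31) and Crebbp (-0.39 ± 0.08, but 0.03 and not called with GC and length offsets) were lower. Ncoa7 was not called with upper quartile factors (0.14, edgeR adjusted p = 0.184). Of 10 corepressor genes 1 was higher and 3 were lower, and 2 and 3 without IP replicate 3. Nrip1, whose protein binds many receptors, averaged 11.1 ± 1.32 CPM in IP and 31.1 ± 1.50 CPM in input (-1.48 ± 0.12, edgeR adjusted p = 1.73e-06). Tbl1xr1, a subunit of the corepressor complexes, differed by -1.29 ± 0.11.

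Of 8 genes that make, carry or destroy thyroid hormone 6 were tested, with 1 lower and 0 higher. Without IP replicate 3 the transporter gene Slco1c1 was called lower too (-2.27, edgeR adjusted p = 0.000746, against 0.116 with all libraries), so that 2 were lower. Dio2, the deiodinase gene that makes the active hormone in astrocytes and tanycytes, averaged 7.62 ± 2.47 CPM in IP and 18.7 ± 3.19 CPM in input (-1.29 ± 0.24, edgeR adjusted p = 0.00116). For retinoids 11 of 13 genes were tested, with 2 higher and 3 lower, or 2 and 2 without IP replicate 3. Rbp4, the carrier of retinol, averaged 11.7 ± 4.85 CPM in IP and 1.82 ± 0.341 CPM in input (2.68 ± 0.32, edgeR adjusted p = 3.78e-05). Rdh10, whose enzyme makes retinal from retinol, averaged 9.78 ± 2.94 and 4.90 ± 0.108 CPM in IP and input (edgeR adjusted p = 0.00486). The retinoic acid synthesis genes Aldh1a1 (35.5 ± 4.86 CPM in IP, 139 ± 17.5 CPM in input) and Aldh1a2 (2.50 ± 1.30 CPM in IP, 8.60 ± 3.46 CPM in input) were lower.

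The enzymes that set glucocorticoid action inside a cell moved in opposite directions. Hsd11b2, whose enzyme inactivates corticosterone, averaged 80.3 ± 4.62 CPM in IP and 29.3 ± 1.14 CPM in input (1.46 ± 0.08, edgeR adjusted p = 8.52e-08). Hsd11b1, whose enzyme regenerates it, differed by -2.08 ± 0.46 (edgeR adjusted p = 0.00345). Of 13 steroid, oxysterol and vitamin D enzyme genes 8 were tested, with 1 higher and 2 lower, Cyp7b1 (-1.18 ± 0.35) being the other. Without IP replicate 3 the counts were 2 higher and 4 lower, and the steroid transport gene Star was then called higher (0.71, edgeR adjusted p = 0.0211, against 0.083 with all libraries). Cyp7b1 lost its call without input replicate 1 or 3 (edgeR adjusted p = 0.0614 and 0.053) and with GC and length offsets (0.0841). Of 11 glucocorticoid target genes 3 were higher and 5 lower, with a median of -0.11. Fkbp5, the target that also acts as a receptor cochaperone and is counted in both lists, averaged 16.8 ± 3.23 CPM in IP and 10.3 ± 1.18 CPM in input (0.71 ± 0.16, edgeR adjusted p = 0.00414). Per1, a clock gene, was higher as well (0.46 ± 0.10), whereas Mt1, a metallothionein gene (-0.99 ± 0.11), and Klf9 (-0.57 ± 0.13, but -0.16 and not called with GC and length offsets) were lower.

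Of 6 LXR target genes 5 were lower and 1 higher, with a median of -0.79. Apoe, the lipoprotein gene of astrocytes, averaged 90.5 ± 7.87 CPM in IP and 370.5 ± 54.4 CPM in input (-2.03 ± 0.11). Abca1, a sterol exporter gene, differed by -0.67 ± 0.17 (-0.17 and not called with GC and length offsets), and Abcg1, also a sterol exporter gene, by 0.53 ± 0.13 (edgeR adjusted p = 0.00597). Of 7 PPAR target genes 3 were lower and 1 higher, with a median of -0.69. Ucp2, the mitochondrial uncoupling protein gene, averaged 336 ± 27.7 CPM in IP and 72.4 ± 2.93 CPM in input (2.21 ± 0.07, edgeR adjusted p = 3.82e-09). The lists were compared with all tested genes by counts and medians, and no list was tested as a whole.

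**Figure D5:**
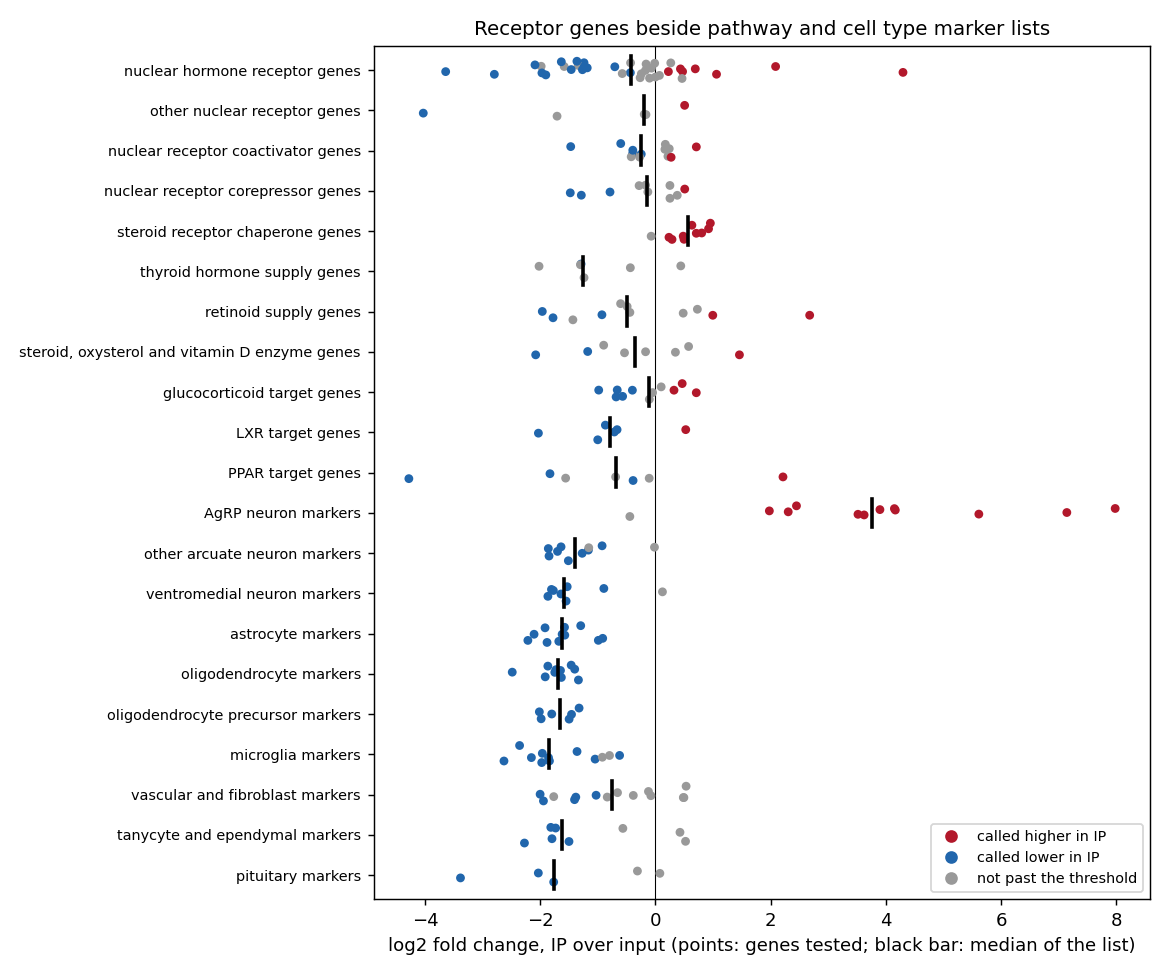
Log2 difference of IP over input for the 37 receptor genes, the tested genes of each pathway list and the markers of each cell type, with 1 point per gene, colour for the call and a black bar for the list median. The chaperone list has a median of 0.56, and the LXR target list, with -0.79, has 5 of its 6 genes lower.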

How the data were processed

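TRAP libraries of 4 IP and 4 input samples were compared within 1 genotype. The authors deposited estimated counts per gene, without any scaling. Salmon 0.14.1 and GRCm38.p6 are named in the submitters' processing notes. Which annotation, trimming or strand setting was applied is not given in the sources used here. Reads that match several transcripts are apportioned by Salmon's model, so overlapping and closely related genes are less certain. Between 15.3% and 19.2% of values per library were not whole (tolerance 1e-06).

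Counts were rounded and tested with edgeR 4.0.16 (R 4.3.3): filterByExpr (minimum count 10), TMM factors, quasi-likelihood test of IP against input with no covariate, and Benjamini-Hochberg adjustment over 17000 genes at 0.05. The SE was obtained as the size of the log2 fold change over the root of F. Depth was 39.9 to 74.6 M counts. Replicates are separate pools of mice per the labels, and no 2 libraries were identical. Pair ratios used counts plus 0.5. Lengths, GC content, coordinates and exon overlaps came from GENCODE M21 and upstream sequences from RefSeq. The code was tested on simulated data.

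The 37 receptor genes, gene lists and pairs were chosen with earlier results of these data known. The text may name all 37 genes, other nuclear receptor genes, Agrp, Npy and Mff, and from each pathway list the 2 genes with the smallest p in each direction. Cell type markers may be named as well. Some genes of the pathway lists count in their lists but have no values here. Values per library are given for called receptor genes that averaged 5 CPM or more in the higher fraction. Alternatives were RLE and upper quartile factors, library totals alone, no filter, a filter of 1 CPM in 4 libraries, DESeq2 1.42.0, limma-voom (limma 3.58.1), a replicate block, GC and length offsets (mgcv 1.9.3) with and without the block, a pseudocount of 5 for pairs, median transcript length, and leaving out each library.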

Additional observations from a re-analysis of the deposited data

Results flagged for a closer look

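In 6 of the 74 groups of 4 libraries formed by the 37 receptor genes and 2 fractions, 1 library stood far from the other 3. Chance flags about 1 in 20 groups, and 4 of the 6 were in IP. IP replicate 4 held 3 of them: Rara at 4.90 CPM was lower than its group, and Ppard at 18.5 CPM and Nr4a2 at 10.5 CPM were higher. Thrb in IP replicate 3 was higher at 21.7 CPM. In input, Nr3c1 was lower in replicate 3 at 85.3 CPM and Nr2f6 was higher in replicate 2 at 5.27 CPM. Thrb, Nr3c1 and Nr4a2 were called with and without these libraries, and Rara, Ppard and Nr2f6 in neither case.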

How the results depend on the processing

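Of the 37 receptor genes, 5 were called higher in every one of the 18 alternatives (Nr0b1, Nr3c1, Nr5a2, Rarb and Thra) and 10 lower in every alternative that tested them (Esr1, Nr2e1, Nr2f1, Nr2f2, Nr4a2, Nr5a1, Rora, Rorb, Thrb and Vdr, which was not tested with the filter of 1 CPM). The counts ran from 5 to 9 higher and from 10 to 17 lower, and leaving out 1 library gave 6 to 8 and 12 to 14. GC and length offsets, which moved the median of all genes by 0.32, gave 6499 genes higher and 2198 lower, against 4171 and 3545, so 74.7% of calls were higher instead of 54.1%. With the replicate block added the counts were 6143 and 2316 (72.6%), and upper quartile factors gave 43.3% and a shift of -0.13. The lost calls of Esrrg, Nr1h2, Nr6a1 and Ppara with offsets had edgeR adjusted p-values of 0.133, 0.0891, 0.0638 and 0.0613. Nr1h2 was not called with library totals alone (-0.33, edgeR adjusted p = 0.0642), nor Rxrg with upper quartile factors (0.56, 0.0755). Esrrb and Pparg were called lower by DESeq2 (0.0178 and 0.0439) and limma-voom (0.026 and 0.0365), which also called Esr2 lower (0.0477).

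Some uncalled genes changed sign. With offsets alone and with the block added, the log2 differences were 0.10 and 0.035 for Rara, 0.20 and 0.19 for Rxra, 0.062 and 0.049 for Rxrb, 0.16 and 0.11 for Ppard, 0.44 and 0.38 for Nr2c1, 0.14 and 0.073 for Nr4a3, 0.051 and 0.038 for Nr1d1 and 0.47 and 0.46 for Dnaja1, and the called gene Crebbp was at 0.029 and 0.024. Rarg was at 0.25 with offsets. With library totals alone Rarg was at 0.079, Rxra at 0.032, Nr2c1 at 0.11 and Dnaja1 at 0.020. Pgr was at -0.065 with upper quartile factors. Leaving out 1 library gave -0.0064 to 0.22 for Pgr, -0.26 to 0.045 for Rara, -0.64 to 0.22 for Rarg and -0.25 to 0.13 for Nr2c1. For ratio differences it gave -0.33 to 0.33 for Rara to Rarg (-0.0088 with a pseudocount of 5), -0.77 to 0.040 for Nr4a1 to Nr4a3, -0.038 to 2.36 for Esr1 to Esr2, -0.035 to 0.25 for Rxra to Rxrb and -0.010 to 0.25 for Rora to Rorb. The causes were not tested.

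IP and input share replicate numbers. Same-numbered libraries correlated by 0.0484 to 0.0836 in their deviations from the group means, and differently numbered ones by -0.0379 to -0.00165. Every library thus correlated best with its own number, though weakly. The labels do not say whether libraries of the same number share a pool of mice. The main fit and the main pair tests treated the libraries as unpaired. With the replicate block 7 receptor genes were higher and 14 lower, and 3878 and 3714 of all genes were. Genes under 1 CPM rest on few counts, which limits Vdr, Ppara, Pparg and Esr2. The same holds in IP for Nr5a1 (9 to 92 counts per library), Esrrb (7 to 32) and Nr1h3 (11 to 92), and in input for Nr0b1 (29 to 48). The ratio of Nr5a2 to Nr5a1 in IP shares this limit.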
